A study of Homo sapiens with 4 samples.

Results

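The amino acid transporters described here are 33 genes of the solute carrier (SLC) families 1, 3, 6, 7, 16, 36, 38 and 43. These genes encode carriers of amino acids across the plasma membrane and the lysosomal membrane, heavy chains of such carriers, or relatives in these families. All are called carriers below. They were listed by gene symbol, with earlier results of these data known, and all 33 were found among the 57500 gene identifiers of each count table. For comparison they were divided into 9 carriers whose genes are known to respond to the transcription factor ATF4 (SLC1A4, SLC1A5, SLC3A2, SLC6A9, SLC7A1, SLC7A3, SLC7A5, SLC7A11 and SLC38A2) and the other 24. That division was made with the same knowledge.

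mRNA of SUM159 cells was sequenced in 4 libraries. SUM159 is a human triple-negative breast cancer line that the paper counts among its metaplastic breast cancer (MpBC) models. There was 1 library of parental cells, which the labels call the parental control, and 1 library from each of 3 NOS2KO clones, numbered 1, 5 and 6. To make the clones, cells received a double nickase plasmid directed against NOS2, the gene of inducible nitric oxide synthase (iNOS), and resistant clones were kept after puromycin on the basis of their iNOS protein and their nitrite and nitrate. Each NOS2KO library is therefore 1 clone. The labels do not say that the parental cells went through transfection, puromycin or cloning, and with 1 parental library an effect of the genotype and a property of that single culture cannot be told apart. Nothing else distinguished the groups in the labels. The paper lists a serum-containing medium (DMEM) for SUM159 and does not separately describe the cultures that were sequenced.

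Transporters of this kind supply the cell with amino acids for protein synthesis, redox defence and signalling. In the SLC7 family, light chains such as SLC7A5 and SLC7A11 pair with the heavy chain SLC3A2 (CD98), and the pair exchanges one amino acid for another. When amino acids run short or the endoplasmic reticulum is stressed, ATF4 is translated and raises a set of genes that includes several of these carriers together with enzymes of serine, asparagine and proline synthesis. Sites where ATF4 binds are called CARE sites, and they resemble the letters TGATGNAAN, where N is any base.

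Promoter sequences are shown for the members that held these letters, since the carriers were compared by their relation to ATF4. The windows were taken from RefSeq (GRCh38.p14) and run from 250 bases before to 50 bases after each annotated start. Of the 33 genes, 24 had at least 1 window, and SLC7A11, SLC7A2, SLC7A3, SLC6A6, SLC6A15, SLC3A1, SLC1A2, SLC38A3 and SLC43A3 had none in the table used. The motif TGATGNAAN, searched on both strands, was found in 6 of the 24 genes, and in 3.611% of all 35116 windows or 4.45% of all 27305 genes. Each stretch is written 5′ to 3′ along the strand of the gene, and capitals mark the matching letters or their complement on the other strand.
SLC1A4, chr2:64989351-64989419, plus strand: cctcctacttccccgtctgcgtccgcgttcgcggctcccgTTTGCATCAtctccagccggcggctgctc
SLC1A5, chr19:46784883-46784951, minus strand: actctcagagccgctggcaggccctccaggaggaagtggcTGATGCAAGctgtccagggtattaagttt
SLC38A1, chr12:46266492-46266560, minus strand: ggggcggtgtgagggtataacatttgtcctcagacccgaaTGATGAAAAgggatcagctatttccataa
SLC3A2, chr11:62881719-62881748, plus strand: gtaatgtgcaggactcCTTACATCAgctcc
SLC7A1, chr13:29595659-29595721, minus strand: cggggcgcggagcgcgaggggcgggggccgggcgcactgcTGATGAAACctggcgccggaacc
SLC1A3, chr5:36596338-36596396, plus strand: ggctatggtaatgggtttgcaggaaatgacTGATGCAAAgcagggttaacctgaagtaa

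The match lay across 1 of 2 annotated starts of SLC1A4, from 8 bases before it to base 1, and within the first 16 bases after the start of SLC7A1. In SLC1A5, SLC3A2 and SLC1A3 it belonged to 1 of 3 annotated starts, and in SLC38A1 to 1 of 2. Of the 6 genes, 5 were lower in the clones by the criterion given below, out of 7 such genes with a window, whereas SLC1A3 was the 1 gene among the 17 others. SLC1A4, SLC1A5, SLC3A2 and SLC7A1 are also in the ATF4-responsive class, which was chosen with earlier results known. SLC7A11, which met the criterion as well, had no window. The tally is therefore not a test. A second motif, TGACNNNGC, which resembles the antioxidant response element, was found in 13.35% of all windows and 16.06% of all genes. It was in 4 of the 7 genes and in 3 of the 17 others. The 4 included SLC7A5, whose window held no match to TGATGNAAN and is shown for its place as the carrier with the highest level in parental cells.
SLC7A5, chr16:87869481-87869549, minus strand: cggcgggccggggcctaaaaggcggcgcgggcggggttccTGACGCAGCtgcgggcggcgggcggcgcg
Such matches are letters in a window and were not tested as binding sites.

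The counts on genes ranged from 90467395 in the parental library to 122171287 in clone 1, so that 3 counts corresponded to 0.0246 to 0.0332 CPM (counts per 1000000 counts of the library). The libraries held the 5 listed mesenchymal markers of this line, though not at equal levels. VIM (1654.5 CPM in parental cells, 2890 to 3855 CPM in the clones), CD44 (454 and 785 to 827 CPM) and AXL (276 and 309 to 470 CPM) were higher in all clones. CAV1 (90.1 and 313 to 527 CPM) was higher by the criterion defined in the next paragraph. ZEB1 (83.7 and 39.5 to 57.8 CPM) was lower in all clones. Of 5 genes listed as low in this line, ESR1, PGR, CDH1 and EPCAM were at 0.741 CPM or less. The fifth, ERBB2, was not low, at 48.3 CPM in parental cells and 55.6 to 106 CPM in the clones. NOS2 itself had 2 counts in parental cells and 3, 18 and 1 counts in clones 1, 5 and 6. At this level NOS2 mRNA did not check the genotype labels, and clone 5 below means the library so labelled. Values of the clones are given in the order 1, 5 and 6. Of 4 markers of leukocytes, endothelium and fibroblasts, the leukocyte gene PTPRC was higher in the clones by the criterion defined in the next paragraph, from 4.45 CPM in parental cells to between 41.7 and 105 CPM. The others did not move alike. PECAM1 was lower in all clones, at 16.1 CPM in parental cells and 13.9, 7.06 and 8.64 CPM in the clones. DCN was at 2.83 CPM in parental cells and 16.1, 1.27 and 1.53 CPM in the clones. PDGFRB was at 181 CPM in parental cells and 66.4, 563 and 563 CPM in the clones. The summed CPM of the 4 was 204 in the parental library and 165 to 677 in the clones. The part of these markers in the results was not tested. In bulk RNA, fewer cells with a transcript and less of it per cell cannot be told apart.

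The first question was which carriers differed between parental cells and the NOS2KO clones. CPM values are relative to the library size scaled by the trimmed mean of M values (TMM). The fold changes are those of edgeR's quasi-likelihood test, with the spread taken from the 3 clones, since 1 parental library has none. The criterion used below is an unadjusted p under 0.05 with a log2 fold change above 1 or below -1. By it 8 of the 32 carriers tested were lower in the clones and 0 were higher, beside 5.34% of all 22511 genes lower and 4.24% higher. The 8 were SLC7A5, SLC3A2, SLC1A4, SLC7A1, SLC6A9, SLC7A11, SLC38A1 and SLC1A5. With Benjamini-Hochberg adjustment over all genes, 0 carriers had an edgeR adjusted p under 0.05, and 0.00444% of all genes (1 gene) did. With the Wald test of DESeq2 the same 8 carriers had an adjusted p under 0.05 and were lower, beside 3.05% of all genes lower and 3.13% higher by that test. The carriers called lower therefore rest on an unadjusted p in edgeR and on an adjusted p in DESeq2.

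A count that needs no test is the number of genes for which every clone lay on 1 side of the parental library by more than 1 on the log2 scale. It was 9 lower and 0 higher among the 33 carriers, beside 6.29% of all genes lower and 6.07% higher. Where a gene had to reach 10 CPM in any library, these shares were 5.24% and 4.26%. The ninth carrier was SLC7A2. An exact permutation test of a single value cannot go below p = 0.25 with 1 library against 3.

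**Figure D1:**
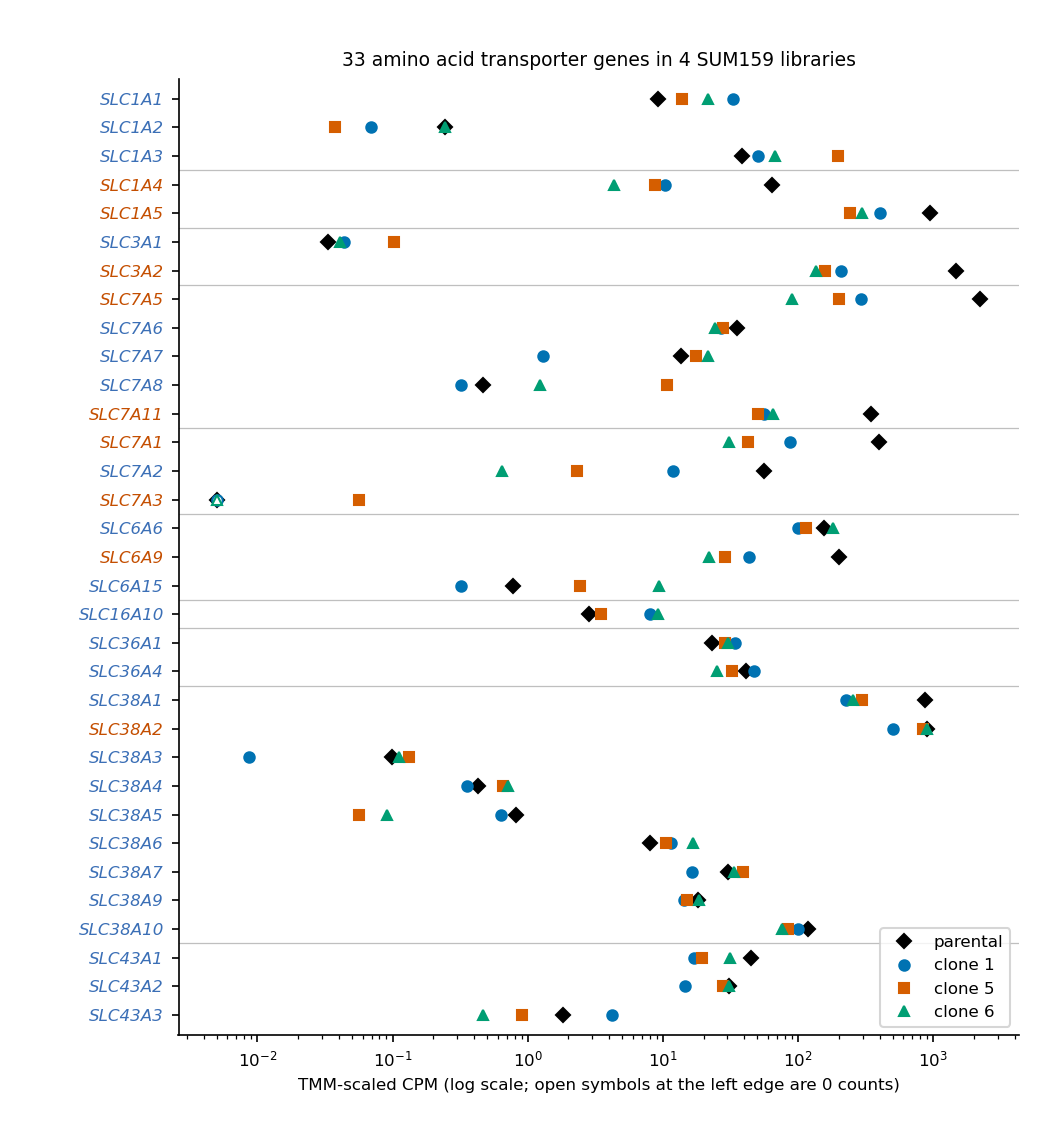
TMM-scaled CPM (log axis) of the 33 transporter genes in the parental library (diamonds) and NOS2KO clones 1, 5 and 6, grouped by role, with the names of the 9 ATF4-responsive carriers in orange; open symbols at the left edge are 0 counts. The black diamonds of SLC7A5, SLC3A2, SLC1A4, SLC7A1, SLC6A9, SLC7A11, SLC38A1 and SLC1A5 lie to the right of all 3 clones, while SLC38A2 overlaps the clones and SLC7A7, SLC6A15 and SLC43A3 have clones on both sides.

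The heavy chain and its light chains held the carriers with the largest differences in CPM. In GRCh38 the genes of the 2 highest, SLC7A5 and SLC3A2, lie at chr16:87830023-87869488 on the minus strand and chr11:62856102-62888875 on the plus strand. SLC7A11 lies at chr4:138164097-138242349, SLC7A1 at chr13:29509410-29595688, SLC1A5 at chr19:46774883-46788594 and SLC6A9 at chr1:43991500-44031467, all on the minus strand. SLC1A4 lies at chr2:64988477-65023865 on the plus strand. SLC38A1 and SLC38A2 lie near each other on the minus strand, at chr12:46183063-46270017 and chr12:46358189-46372867. The counts cover the exons of each gene. SLC7A5 (LAT1, a light chain that exchanges large neutral amino acids such as leucine) stood at 2224 CPM in parental cells and at 293, 199.8 and 90.5 CPM in clones 1, 5 and 6. Its clones were 7.60-fold, 11.1-fold and 24.6-fold below parental, and the clone mean was 194 ± 101 CPM (SD, n = 3). The fitted log2 fold change was -3.52 with a standard error (SE) of 0.69, with an adjusted p of 0.281 in edgeR and 0.0003 in DESeq2. All 3 clones lay far below the parental library, and they also differed from each other by 1.69 on the log2 scale from the highest to the lowest.

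SLC3A2, the heavy chain that carries these light chains to the cell surface, stood at 1471 CPM in parental cells and at 206, 158 and 137 CPM in clones 1, 5 and 6. The clone mean was 167 ± 35.4 CPM (SD, n = 3), and the clones were closer together than those of SLC7A5. Its log2 fold change was -3.14 (SE 0.37), with an adjusted p of 0.259 in edgeR and 4.43e-09 in DESeq2. SLC7A11 (xCT, the light chain that takes up cystine in exchange for glutamate) stood at 347 CPM in parental cells and at 55.4, 50.7 and 64.9 CPM in clones 1, 5 and 6. It had the tightest clones of the 8, with log2 ratios to parental of -2.65, -2.78 and -2.42, and a log2 fold change of -2.61 (SE 0.29; adjusted p 0.259 in edgeR and 1.29e-08 in DESeq2). In the annotation used, 8.97% of the exon bases of SLC7A11 are shared with its antisense gene SLC7A11-AS1, which had 34 counts in the parental library and 11 to 18 in the clones. The strand setting of the counting is not given in the sources used here. A pseudogene of SLC7A5, SLC7A5P1, had 375 counts in the parental library and 71 to 219 in the clones, so it held few counts beside SLC7A5 itself (8927 counts or more in every library).

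The other light chains did not pass the criterion. SLC7A6 (y+LAT2) stood at 35.4 CPM in parental cells and 24.1 to 27.6 CPM in the clones. Its log2 fold change of -0.43 (SE 0.28) had an adjusted p of 0.582 in edgeR, and 55.6% of its exon bases overlap other genes. SLC7A7 (y+LAT1, an exchanger of cationic for neutral amino acids) stood at 13.7 CPM in parental cells and at 1.30, 17.7 and 21.6 CPM in clones 1, 5 and 6. Clone 1 was thus 10.5-fold below parental while the remaining clones were 1.29-fold and 1.57-fold above it. SLC7A8 (LAT2) had 42 counts in parental cells and 37, 1149 and 121 counts in clones 1, 5 and 6. In CPM these were 0.465, 0.323, 10.8 and 1.23, so the higher level belonged mostly to clone 5, and the fitted value of 3.14 had an SE of 1.89.

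Levels of different genes were compared per length, as TPM (transcripts per 1000000, scaled by length), computed with the exon lengths in the files. SLC3A2 stood at 1076 TPM in parental cells and at 131, 122 and 96.1 TPM in clones 1, 5 and 6. The 5 light chains summed to 1940 TPM in parental cells and to 234, 224 and 122 TPM in the clones. Heavy chain mRNA per light chain mRNA was 0.555 in parental cells and 0.557, 0.544 and 0.790 in clones 1, 5 and 6. Hence the ratio in clone 1 and clone 5 was close to that of parental cells although both parts were lower, and in clone 6 it was higher.

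Within the light chains the make-up was not the same in the 4 libraries. SLC7A5 made up 91.5% of light chain TPM in parental cells and 86.5%, 74.9% and 57.1% in clones 1, 5 and 6. SLC7A11 made up 7.03% in parental cells and 8.05%, 9.34% and 20.1% in the clones, although its own level was lower in every clone. The share of SLC7A6, SLC7A7 and SLC7A8 together was 1.45% in parental cells and 5.43%, 15.8% and 22.7% in the clones, whereas their summed level was 28.1 TPM in parental cells and 12.7, 35.4 and 27.6 TPM in the clones. These shares have 1 parental value and were not tested.

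**Figure D2:**
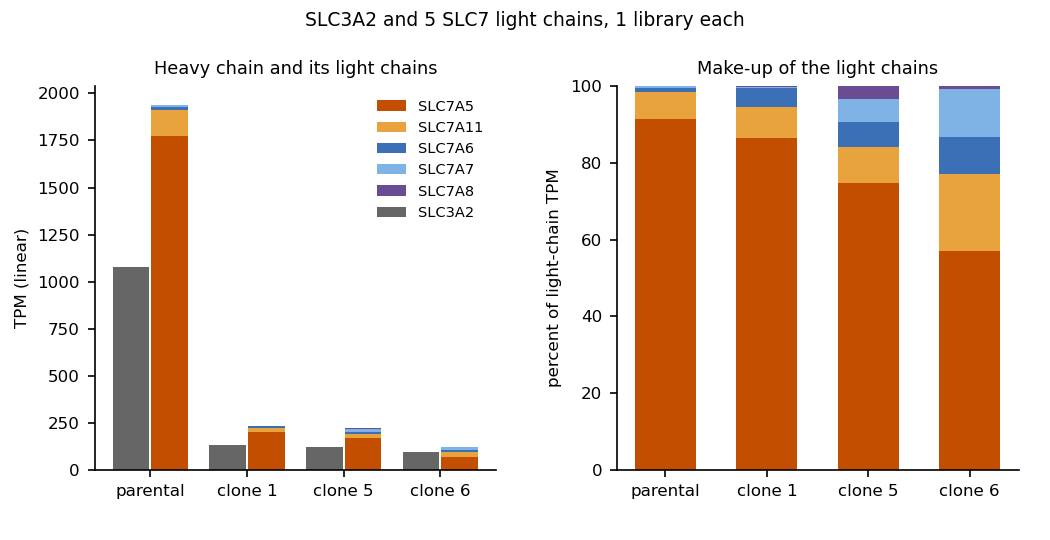
Left, TPM (linear axis from 0) of the heavy chain SLC3A2 (grey) and of 5 SLC7 light chains (stacked) in each library; right, the share of each light chain in their summed TPM, in percent. Bars are single libraries without error bars. Both the grey bars and the stacks are lower in the clones on the left, and on the right SLC7A5 goes from 91.5% in parental cells to 57.1% in clone 6.

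Among carriers of cationic amino acids, SLC7A1 (CAT1, the general carrier of arginine and lysine, arginine being the substrate of nitric oxide synthases) stood at 393 CPM in parental cells and at 86.6, 42.2 and 30.7 CPM in clones 1, 5 and 6. The clones were 4.54-fold, 9.31-fold and 12.8-fold below parental, with a log2 fold change of -2.89 (SE 0.64), and an adjusted p of 0.310 in edgeR and 0.0035 in DESeq2. No clone came within 4-fold of the parental level. SLC7A2 (CAT2), which is a further arginine carrier and is not in the ATF4-responsive class, had 5024 counts in parental cells and 1366, 245 and 64 counts in clones 1, 5 and 6. These are 55.6, 11.9, 2.30 and 0.649 CPM, or log2 ratios of -2.22, -4.60 and -6.42. The clones span a range so wide that the fitted log2 fold change of -3.49 had an SE of 1.51, and its unadjusted p of 0.0548 missed the criterion (adjusted p 0.443 in edgeR and 0.116 in DESeq2). It met the criterion with clone 1 left out (-5.23) or clone 6 left out (-2.96). SLC7A3 (CAT3), which is listed as ATF4-responsive, was at 0 counts in 3 libraries and at 6 counts in clone 5, and was not tested.

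Both neutral amino acid exchangers of the SLC1 family were lower. SLC1A5 (ASCT2, which takes up glutamine) stood at 949 CPM in parental cells and at 402, 240.5 and 295 CPM in clones 1, 5 and 6, with a log2 fold change of -1.60 (SE 0.41; adjusted p 0.332 in edgeR and 0.0307 in DESeq2). It changed least of the 8 carriers. In the annotation 23.8% of its exon bases are shared with neighbouring genes. SLC1A4 (ASCT1, an exchanger of serine, alanine and cysteine) stood at 64.1 CPM in parental cells and at 10.3, 8.70 and 4.32 CPM in clones 1, 5 and 6, with a log2 fold change of -3.04 (SE 0.55; adjusted p 0.275 in edgeR and 0.0003 in DESeq2). Of the 3 acidic amino acid carriers of the same family, 2 had every clone above parental. SLC1A3 (EAAT1, a glutamate and aspartate carrier) stood at 38.1 CPM in parental cells and at 50.9, 197 and 67.4 CPM in clones 1, 5 and 6. SLC1A1 (EAAT3) stood at 9.22 CPM in parental cells and at 33.2, 13.8 and 21.5 CPM in the clones. All clones were above parental for both genes, but the fitted log2 fold changes of 1.47 (SE 0.84) and 1.31 (SE 0.55) did not pass the criterion in edgeR, with adjusted p of 0.575 and 0.484. The value of SLC1A3 was 0.66 with clone 5 left out. SLC1A1 met it with DESeq2's unadjusted p (0.0421) and with clone 5 left out (1.59). The third, SLC1A2, was at 0.243 CPM or less in every library, with clones 1 and 5 below parental and clone 6 at its level.

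The sodium-coupled neutral amino acid carriers (SLC38 family) were divided. SLC38A1 (SNAT1, which takes up glutamine and alanine) stood at 867 CPM in parental cells and at 226, 295 and 253 CPM in clones 1, 5 and 6. Its log2 fold change was -1.75 (SE 0.32), with an adjusted p of 0.275 in edgeR and 0.0006 in DESeq2, and its clone mean was 258 ± 34.3 CPM (SD, n = 3). It was the single carrier outside the ATF4-responsive class to meet the criterion. SLC38A2 (SNAT2), a close relative that is in that class and is a known target of amino acid starvation, stood at 897 CPM in parental cells and at 503, 836 and 901 CPM in clones 1, 5 and 6. Clone 1 was 1.78-fold below parental and the other clones were within 1.07-fold of it, and the log2 fold change of -0.26 (SE 0.45) had an adjusted p of 0.836 in edgeR. By TPM it ranked 4 of the 33 in parental cells, with 515 TPM, and 1 of the 33 in clone 5 and clone 6, with 505 and 498 TPM, as SLC7A5 fell from rank 1 (1776 TPM) to rank 6 (69.5 TPM) in clone 6.

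Of the remaining SLC38 genes none met the criterion with all 3 clones. SLC38A10 was at 117 CPM in parental cells and 76.6 to 99.3 CPM in the clones. SLC38A9, a lysosomal sensor of arginine, was at 18.3 CPM in parental cells and 14.4 to 18.5 CPM in the clones, and SLC38A7, a lysosomal carrier of glutamine, was at 30.3 CPM and 16.4 to 38.8 CPM. For SLC38A6 all clones were higher, at 10.4 to 16.7 CPM beside 8.04 CPM, with a log2 fold change of 0.68 (SE 0.44). SLC38A5 (SNAT5) had 74 counts in parental cells and 73, 6 and 9 counts in clones 1, 5 and 6, so that clone 1 was near the parental level while the remaining clones were 14.5-fold and 8.97-fold below it. Its log2 fold change was -1.64, and with clone 1 left out it met the criterion (-3.45). SLC38A3 and SLC38A4 stayed under 1 CPM in every library.

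In the SLC6 family, SLC6A9 (GLYT1, the glycine carrier) stood at 200.4 CPM in parental cells and at 43.5, 28.9 and 21.9 CPM in clones 1, 5 and 6. The log2 fold change was -2.67 (SE 0.45; adjusted p 0.275 in edgeR and 0.0003 in DESeq2), with the clones 4.60-fold to 9.13-fold below parental. SLC6A6, the carrier of taurine, had clones on both sides of the parental level, at 99.7, 114 and 182 CPM beside 155 CPM. SLC6A15, a carrier of branched-chain amino acids and proline, had 70 counts in parental cells and 37, 259 and 921 counts in clones 1, 5 and 6. Its log2 ratios were -1.26, 1.65 and 3.59, and so its clones disagreed in direction by more than the counting error.

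The carriers of the SLC43, SLC16 and SLC36 families held no gene past the criterion with all 3 clones. SLC43A1 (LAT3), which lets neutral amino acids pass down their gradient, stood at 44.5 CPM in parental cells and at 17.1, 19.4 and 31.6 CPM in clones 1, 5 and 6. All clones were lower, and its log2 fold change of -0.97 (SE 0.45) had an unadjusted p of 0.0747. It met the criterion with clone 6 left out (-1.28). SLC43A2 (LAT4) was at 30.7 CPM in parental cells and 14.5, 28.0 and 30.8 CPM in the clones. SLC43A3 had 165 counts in parental cells and 485, 97 and 46 counts in clones 1, 5 and 6, again with clones on both sides. SLC16A10 (TAT1, a carrier of aromatic amino acids) was at 2.82 CPM in parental cells and 3.47 to 9.15 CPM in the clones. The proton-coupled carriers SLC36A1 and SLC36A4, found at lysosomes, were at 23.0 and 41.4 CPM in parental cells, and at 28.8 to 34.0 and 25.1 to 47.2 CPM in the clones. SLC3A1, the heavy chain of a kidney exchanger, was at 0.103 CPM or less.

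**Figure D3:**
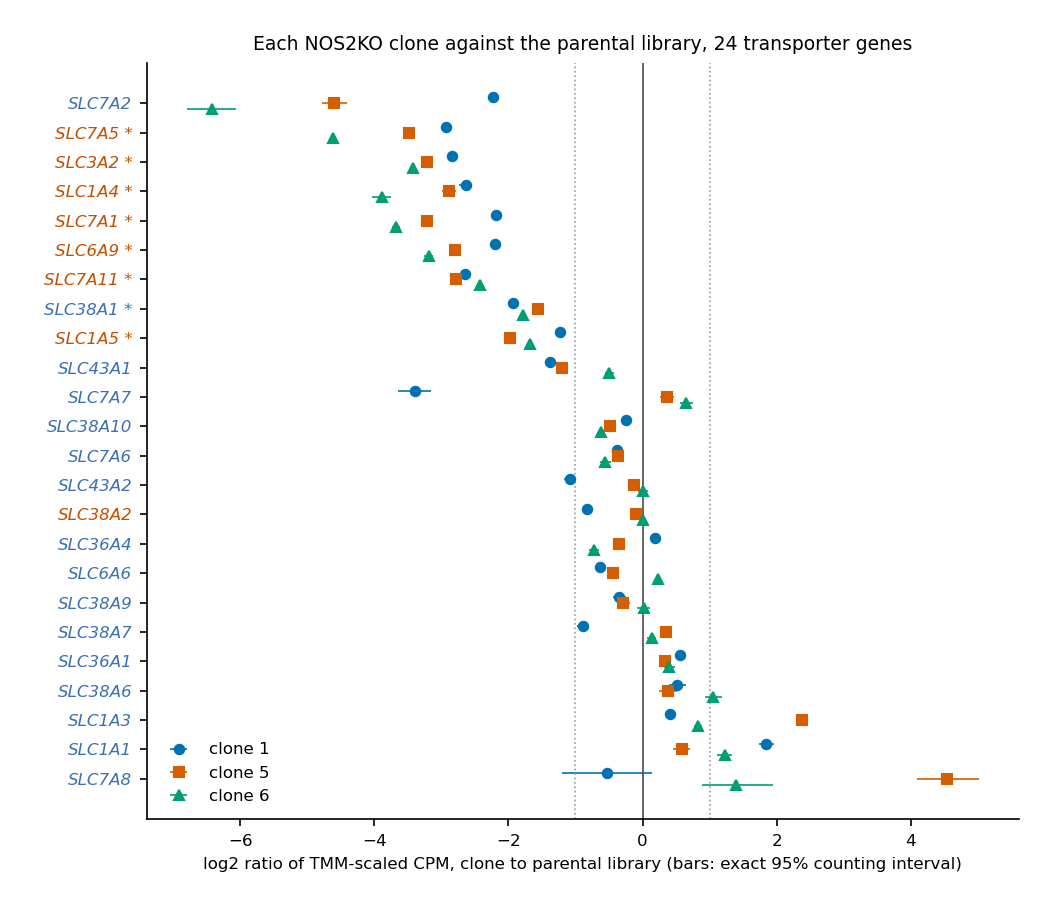
Log2 ratio of TMM-scaled CPM of each NOS2KO clone to the parental library for the 24 transporter genes that reached 10 CPM in any library. Genes are ordered by the mean of their clone ratios. Bars are exact 95% counting intervals, dotted lines mark -1 and 1, asterisks mark the 8 genes past the criterion, and orange names are ATF4-responsive. All clones of the 8 lie left of -1, as do those of SLC7A2, while SLC7A7 and SLC7A8 spread over both sides of 0.

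The second question was whether the ATF4-responsive carriers behaved like the rest. Of the 8 tested, 7 were lower by the criterion, against 1 of the 24 others and 5.34% of all genes. The median log2 fold change of the ATF4-responsive carriers was -2.78 and that of the others -0.12, beside 0.10 for all genes tested. By clone the medians of the ATF4-responsive carriers were -2.42, -2.84 and -3.31 in clones 1, 5 and 6, and those of the others -0.38, 0.08 and 0.15. Over all genes the same ratios had medians of -0.10, 0.02 and -0.03. The ATF4-responsive carriers were thus shifted in each clone relative to the same parental library, and no clone showed a shift of that size in the others. Because the 3 ratios share 1 parental library, they are not independent of each other. The class was also chosen with earlier results of these data known. Adding SLC43A1, SLC36A4, SLC6A15 and SLC16A10 to the class, which are less firmly tied to ATF4, gave a median of -2.11 over the 12 of these 13 genes that were tested. The 24 others had 6 genes below and 6 above parental in all clones and 12 with clones on both sides, while the 9 ATF4-responsive carriers had 7, 0 and 2. The share of all genes on each side is not given here, so nothing is read from these counts.

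**Figure D4:**
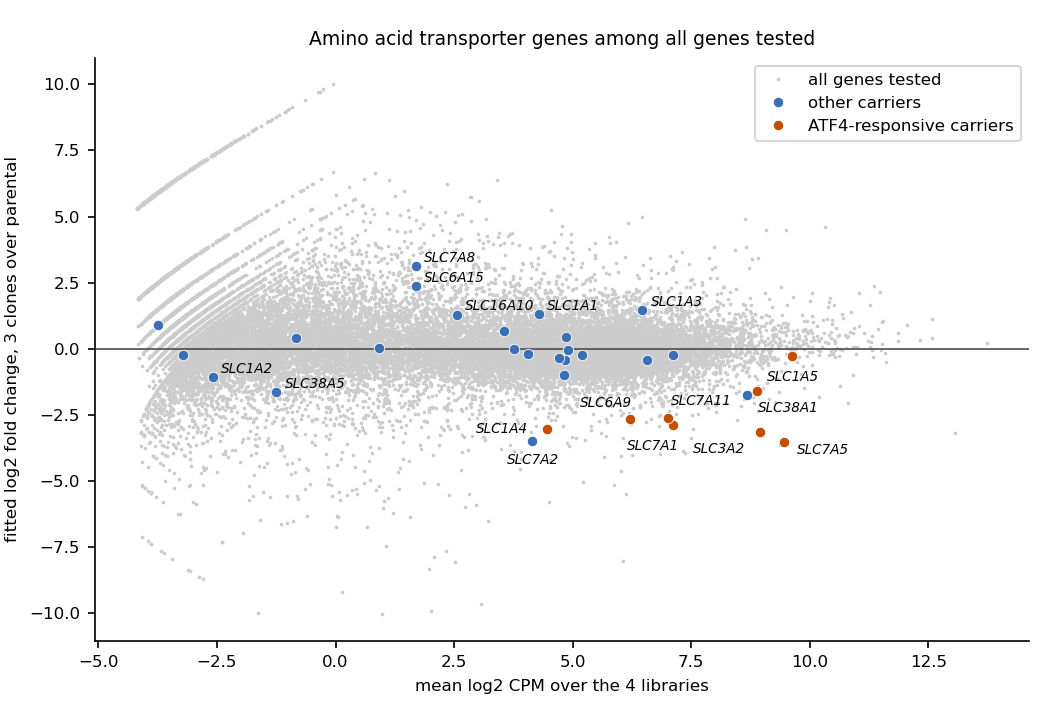
Fitted log2 fold change (3 clones over parental) against mean log2 CPM for all 22511 genes tested (grey), with the ATF4-responsive carriers in orange and the other carriers in blue. Of the 8 orange points 7 lie at -1.60 or lower and 1, SLC38A2, lies near 0, while the blue points spread to both sides.

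In summed TPM the 33 genes came to 5623 in parental cells and to 1376, 1649 and 1452 in clones 1, 5 and 6. The ATF4-responsive carriers accounted for 88.2% of this sum in parental cells and for 77.7%, 70.0% and 71.8% in the clones. The others summed to 665 TPM in parental cells and to 307, 495 and 409 TPM in the clones, a difference made largely by SLC38A1, which alone went from 328 TPM to between 74.3 and 117 TPM. SLC1A5, SLC7A5, SLC3A2 and SLC38A2 were the 4 highest carriers in parental cells, and SLC1A5 was first in clone 1 with 397 TPM.

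The clones were ordered alike in most of the 8 carriers past the criterion. Clone 1 had the smallest fall in 6 of them, the exceptions being SLC38A1 and SLC7A11, and clone 6 the largest in 5. In clone 6 the exact 95% counting interval of the log2 ratio was -4.65 to -4.59 for SLC7A5, against -2.94 to -2.91 in clone 1, so the difference between these libraries exceeded the counting error. ATF4 mRNA stood at 593 CPM in parental cells and at 157, 248 and 273 CPM in clones 1, 5 and 6. ATF4 itself met the criterion, with a log2 fold change of -1.39 (SE 0.42; adjusted p 0.352 in edgeR and 0.0866 in DESeq2). The activity of ATF4 depends on its translation, which these data do not measure, and its part in the levels of the carriers was not tested.

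Genes of the same response that are not carriers were taken from a list of ATF4 and 24 of its known targets. By the criterion 18 of the 25 were lower and 0 were higher, beside 5.34% of all genes lower and 4.24% higher. The median log2 fold change was -2.31 beside 0.10 for all genes. In DESeq2 14 had an adjusted p under 0.05 and were lower, beside 3.05% of all genes. The 5 largest falls past the criterion were those of CHAC1, a glutathione-degrading enzyme, CTH, which makes cysteine, ASNS, asparagine synthetase, TRIB3, a pseudokinase that feeds back on ATF4, and STC2, a secreted glycoprotein. CHAC1 went from 85.5 CPM in parental cells to 1.87, 1.58 and 1.18 CPM in the clones (log2 fold change -5.79, SE 0.38). ASNS went from 386 CPM to 36.2, 12.9 and 24.6 CPM (log2 fold change -3.98, SE 0.60). The log2 fold changes of CTH, TRIB3 and STC2 were -4.20, -3.96 and -3.85. The 7 that did not pass were ATF3, PHGDH, PSPH, ATF5, ALDH18A1, ALDH1L2 and VLDLR. ATF3 (-2.06), PHGDH (-1.16), PSPH (-0.92), ATF5 (-0.69) and ALDH18A1 (-0.44) were below parental in all clones. ALDH1L2 (0.16) had clones on both sides. VLDLR, at 3.25 CPM in parental cells and 6.30 to 14.4 CPM in the clones, was above parental in all clones (1.59, SE 0.60).

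Among carriers outside the 33, no gene tested met the criterion. Of all genes 5.34% were lower and 4.24% higher by it, so lists this small would hold few such genes or none at that share. Of 23 further amino acid carriers of the plasma membrane and lysosome, 16 were too low to be tested, and 0 of the 7 tested met the criterion in either direction. These 7 included the lysosomal cystine carrier CTNS, at 17.8 CPM in parental cells and 13.5 to 22.4 CPM in the clones. Of 9 mitochondrial amino acid carriers 8 were tested and 0 met the criterion. The lowest was SLC25A15, the ornithine carrier, at 14.5 CPM in parental cells and 9.16, 5.06 and 5.40 CPM in the clones (log2 fold change -1.15, SE 0.52). The median log2 fold changes of these lists were -0.22 and -0.04.

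**Figure D5:**
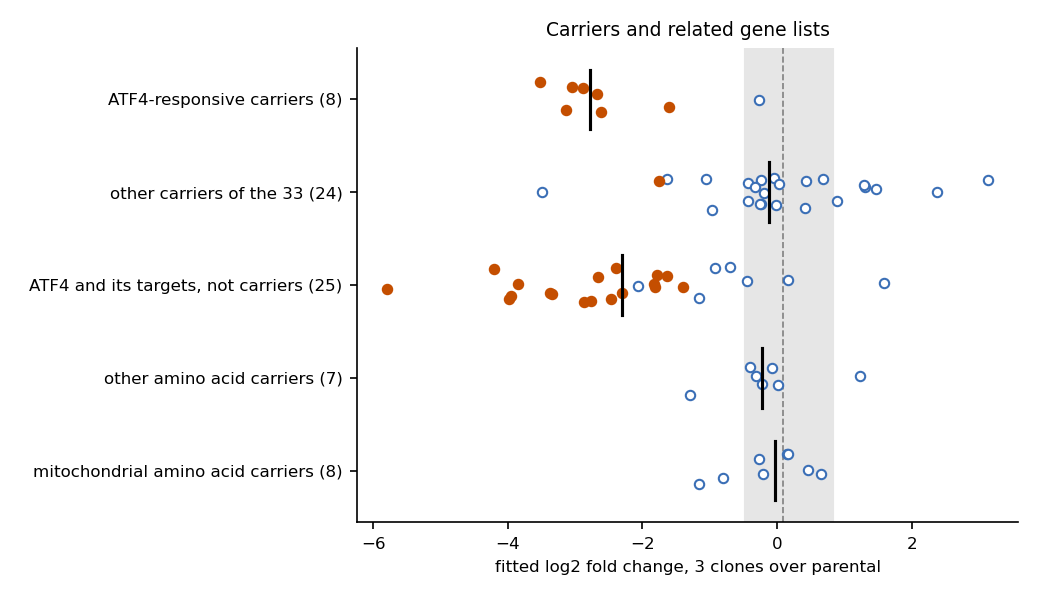
Fitted log2 fold change (3 clones over parental) of each tested gene, by list; filled points met the criterion, bars are list medians, the dashed line is the median of all genes tested (0.10), and the shaded band holds the middle 50% of all genes (-0.47 to 0.83). The medians are -2.78 for the ATF4-responsive carriers and -2.31 for ATF4 and its targets, and the other lists are centred in the band.

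SLC7A8, SLC6A15, SLC7A7, SLC38A5 and SLC43A3 did not meet the criterion with all clones. On the log2 scale their clones differed from each other by more than parental cells differed from the nearest clone. In SLC7A8, SLC6A15, SLC7A7 and SLC43A3 the parental level lay between those of the clones, so this had to hold and carries no further information. A larger difference between clones was also found in further carriers without a call, among them SLC7A2, SLC1A3, SLC1A1 and SLC16A10. It therefore does not set the genes named first apart. The 6 carriers below 1 CPM in every library (SLC1A2, SLC3A1, SLC7A3, SLC38A3, SLC38A4 and SLC38A5) had counts too few to show small differences.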

How the data were processed

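The authors deposited raw counts per gene for each library, without normalization, with the exon length of each gene beside the counts. The submitters' processing notes name bcl2fastq 2.17, Trimmomatic 0.36, STAR 2.5.2b, Subread 1.5.2 (featureCounts), DESeq2 and GRCh38, without giving the strand setting. Ensembl identifiers were given symbols from GENCODE v29 (56898 of 57500), and 32 of the 33 carriers had the same span there. The members and all gene lists were chosen with earlier results of these data known. The test of the clones against parental cells was that of edgeR 4.0.16 under R 4.3.3 (filterByExpr, TMM, glmQLFit and glmQLFTest), with Benjamini-Hochberg adjustment over 22511 genes, a common dispersion of 0.319, and 2 residual beside 2.75 prior degrees of freedom. DESeq2 1.42.0 gave the Wald test. Scripts were tested on simulated data before use. Log2 ratios of a clone to the parental library carry exact Clopper-Pearson 95% intervals, which cover counting error only, as does the floor of 3 counts. Nothing in the labels says whether the clones were grown on separate days. The p-values set the difference from parental against the spread between these 3 libraries, moderated by that of other genes. The parental library adds no spread of its own. Genes given in every library were those past the criterion, those over 1 log2 from parental in 1 direction in all clones or in both directions, the ATF4-responsive carriers and the 10 highest by TPM in parental cells. Other steps used Python 3.11.15 with pandas 2.3.3, scipy 1.17.1 and matplotlib 3.10.9. Alternatives were other scalings (RLE, upper quartile, library size), filters and tests, leaving out each clone, a wider ATF4-responsive class and other thresholds of difference, and the shares among genes with at least 10 CPM were added after seeing the data.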

Additional observations from a re-analysis of the deposited data

How the results depend on the processing

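The 8 carriers past the criterion met it under every alternative run. Leaving out each clone in turn gave 8 to 10 carriers lower and 0 to 1 higher, 9 to 11 over 1 log2 lower and 0 to 2 over 1 log2 higher in all clones, 16 to 22 of the ATF4 list lower and 0 to 1 higher, and 0 to 2 mitochondrial carriers lower. Without clone 5 SLC1A1 was higher, and without clone 1 VLDLR was higher and SLC25A15 and SLC25A22 were lower. The median of the ATF4-responsive carriers ran from -3.14 to -2.66 and that of the others from -0.22 to 0.10. With DESeq2 the carriers with an adjusted p under 0.05 were 8 instead of 0, 1 carrier (SLC1A1) was higher by the criterion, and 1 gene of the ATF4 list (VLDLR) was higher. Without a filter VLDLR, 1 of the ATF4 list, and SLC6A20, 1 of the further carriers, were higher. These genes were named after their values were seen. Any difference in place of 1 log2 gave 13 carriers lower and 6 higher in all clones, for which no share of all genes is given here. The wider class had a median of -2.11.

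The sign of 4 carriers without a call turned. SLC7A7 was at -0.02 and became 0.11 with upper quartile scaling, 0.021 with library size scaling, 0.0016 with no filter and 0.033 with a minimum of 1 CPM, and ran from -0.53 to 0.52 with a clone left out. SLC38A7 became 0.076 with upper quartile scaling and 0.0046 with a minimum of 1 CPM, and ran from -0.27 to 0.25 with a clone left out. SLC43A3 became -0.018 with library size scaling, and ran from -1.40 to 0.50 with a clone left out, as SLC38A3 did from -0.71 to 0.29. The cause was not tested. SLC7A2 met the criterion in 6 alternatives, SLC38A5 (-3.45) without clone 1 and SLC43A1 (-1.28) without clone 6. The median of all genes was 0.10, at most 0.20 with another scaling and 0.31 with no filter. The adjusted p of SLC7A5, SLC3A2 and the other called carriers reached 0.726 to 0.739 with a clone left out. No paired analysis was possible, because there was 1 parental library and the labels pair it with no clone. The parental group has 1 library, which limits every comparison.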
